A study of Rattus norvegicus with 8 samples.

Results

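The ribosomal proteins of the cytosolic and of the mitochondrial ribosome were followed in rat PC12 cells with and without forskolin. Members were chosen by name: every probe set whose annotation gave 1 symbol that starts with Rpl, Rps, Mrpl or Mrps, with the kinases of the Rps6k family left out. This gave 164 probe sets of 31142 on chips A and B, for 124 genes, of which 48 carry symbols of cytosolic and 76 of mitochondrial ribosomal proteins. Among the 48 is Rps4x-ps1, whose symbol marks a pseudogene. A probe set is a group of short probes against 1 transcript, and its value here is a log2 signal.

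PC12 is a line derived from a pheochromocytoma, a tumour of the chromaffin cells of the adrenal medulla, and forskolin activates adenylyl cyclase and so raises cyclic AMP. The labels, which spell the drug foreskolin, give 4 groups of 2 arrays each: forskolin and no forskolin on chip A, and the same on chip B. The series title calls the no forskolin side an inactive control. Its nature, and the dose and duration of forskolin, are not stated in the labels. The labels do not say that the replicates were separate cultures, so p-values measure only the spread between these arrays, which may be technical. In RNA from bulk cells, fewer cells of a type and less RNA per cell cannot be told apart.

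A ribosome is built from ribosomal RNA and a large set of small, mostly basic proteins, in a large and a small subunit. The cytosolic ribosome makes nearly all proteins of the cell. Most mRNAs of its proteins begin with a run of pyrimidines, the terminal oligopyrimidine tract, through which mTOR complex signalling and the RNA-binding protein LARP1 control their translation. The mitochondrial ribosome is a separate machine inside the organelle. It makes the few proteins of the respiratory chain that mitochondrial DNA encodes, while its own proteins are encoded in the nucleus and imported.

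Chip A carried 50 cytosolic and 85 mitochondrial probe sets, and chip B 6 and 23. After a filter on dim signals 153 of the 164 probe sets were tested, for 119 of the 124 genes. On chip A the filter removed 1 probe set each of Rpl14, Rpl30, Rpl3l, Rpl7, Rps4y2, Mrpl51 and Mrps26, and on chip B those of Rpl28, Rps4x-ps1, Mrps15 and Mrps24. Rplp1, Rplp2, Rps27 and Rpl22l1 were not analysed here. Ribosomal protein genes have many near-identical processed pseudogenes, and the share of such copies in a signal was not tested. Without the probe sets whose ID ends in a, s or x, which marks probes that may bind more than 1 transcript, the median differences on chip A were -0.033 (cytosolic) and -0.046 (mitochondrial).

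The arrays of a chip lay close together, with medians of 8.15 to 8.17 on chip A and 6.77 to 6.79 on chip B (log2). No detection call was used, and the number of arrays, 2 in each group, limits the precision. Of 10 markers of chromaffin or PC12 cells 7 passed the filter, among them Th (tyrosine hydroxylase), Ddc (the decarboxylase that makes dopamine), and the granins Chga, Chgb and Scg2. Dbh and Slc18a1 were under it. Phox2a and Hand2, transcription factors of sympathoadrenal cells, rose with forskolin by 0.41 and 0.28 (limma adjusted p = 0.000102 and 0.0166). Of the markers of other cell types, 3 of 6 for fibroblasts, 3 of 5 for the adrenal cortex, 3 of 6 for blood and endothelium and 2 of 5 for glia passed the filter, and limma called none of these. The fibroblast collagen Col3a1 was bright in both groups (11.83 with forskolin, 11.82 without).

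Start sites of the members with the smallest p on chip A are printed first, to show the letters round the annotated start of their transcripts. Promoter sequence, from 250 bases before to 50 bases after the annotated start, came from RefSeq (assembly GRCr8) and was found for 102 of the 124 genes. Mrpl21, also among the 6 mitochondrial genes of smallest p, had no promoter there and is not printed. Each line runs 5′ to 3′ from 20 bases before the start to base 10 of the transcript, and capitals mark an unbroken run of at least 8 C or T, which 4 of the 6 cytosolic lines hold and Rpl24 and Rpl7l1 do not.
Rpl35: ggccccgCCCCTTCCTCTTTCTCTCgaacc
Rps24: ggcagtgagcggTCCTCTTTTCCTCCTTTa
Rpl35a: gcgcggcgggtcttgCCTTCCTCTTTCCgc
Rpl13a: caagaCCTCTTCCTTTCCTaggcggctgcc
Rpl24: gaagggaatttagggaggagattctctacc
Rpl7l1: gtggaagctgcagatgcattgtgggaagcc
Mrps6: actgggaagattccatcaagatggcagcca
Mrps18b: gcgcatgcgcagtcgttcttccggcaggcc
Mrps15: attggtcgagcctgaaccatcatggctgcg
Mrpl33: cgccacatgccccggaagcagttgttgagc
Mrpl12: tacccttgcgagacaaaggcatgccgcgga
These windows lie at chr3:43165912-43165941 on the minus strand for Rpl35, chr16:96497-96526 on the plus strand for Rps24, chr11:81235012-81235041 on the minus strand for Rpl35a and chr1:104748904-104748933 on the minus strand for Rpl13a. Those of Rpl24 and Rpl7l1 lie at chr11:58128396-58128425 on the minus strand and chr9:21695698-21695727 on the plus strand. The mitochondrial ones are chr11:44778647-44778676 (plus) for Mrps6, chr20:2842986-2843015 (plus) for Mrps18b, chr5:143606121-143606150 (plus) for Mrps15, chr6:30553978-30554007 (minus) for Mrpl33 and chr10:106256726-106256755 (plus) for Mrpl12.

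A run of this kind was present round the start in 22 of 40 cytosolic promoters (55%), in 11 of 64 mitochondrial ones (17.2%) and in 12% of all 33469 promoters in the table. A stricter form, a C at the start followed by at least 4 pyrimidines, was found in 27.5%, 3.12% and 2.63%. Of the lines printed, those of Rpl13a and Rps24 hold a run but not this stricter form. In Rpl13a the run ends before the start. These sequences describe the genes and were not measured on the arrays.

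On chip A both families lay slightly lower with forskolin, by a few percent, and few members passed the test. Mrps6 and Mrps18b, both of the mitochondrial small subunit, fell by 0.24 and 0.19 on the log2 scale. Of 45 cytosolic probe sets 0 were called by limma at an adjusted p under 0.05, and of 83 mitochondrial probe sets 2 were called, both lower. Among the 11106 probe sets tested on this chip 3.30% were called, 2.03% higher and 1.26% lower, so the members' counts are near the background.

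At an unadjusted p under 0.05, 0 cytosolic probe sets were higher and 6 lower (13.3%), and 0 mitochondrial probe sets were higher and 19 lower (22.9%). The background at that level was 7.10% higher and 10.3% lower. Below 0 lay 42 of the 45 cytosolic and 70 of the 83 mitochondrial differences, against 55.0% of all tested probe sets, and the median difference was -0.035 and -0.046 against -0.0082. As ratios of signal these medians were 0.976 and 0.969. The forskolin arrays lay wholly under the others for 28 of the 45 cytosolic probe sets (62.2%) and 38 of the 83 mitochondrial ones (45.8%), against a background of 28.0%. They lay wholly above the others for 1 and 6 (background 20.4%). Members share arrays and are not replicates, so no test was made over a family. The median 95% interval of 1 probe set reached 0.068 to either side for cytosolic and 0.098 for mitochondrial members.

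**Figure D1:**
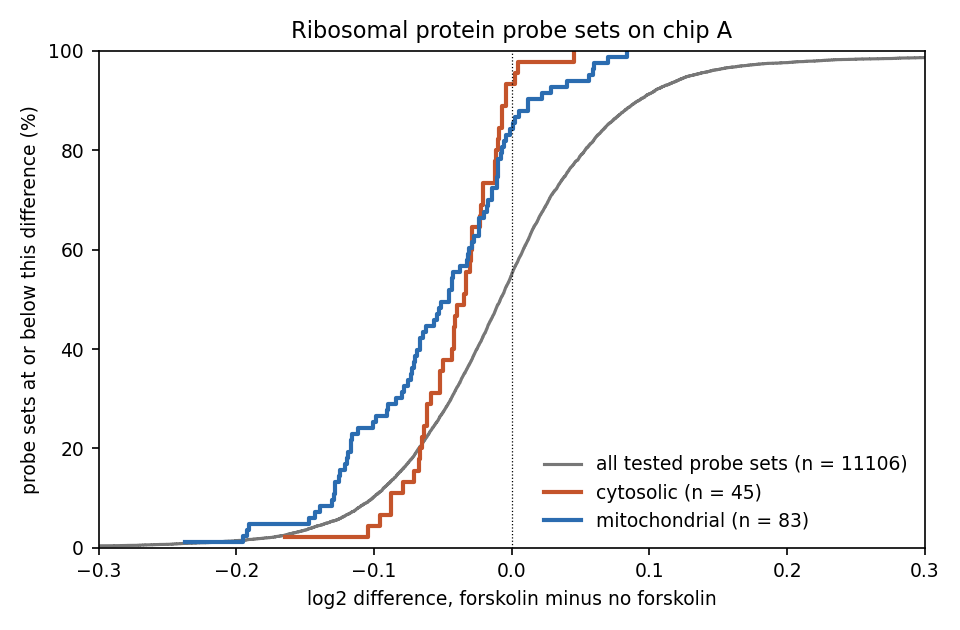
Cumulative share of probe sets on chip A (vertical axis) by log2 difference, forskolin minus no forskolin (horizontal axis), for all tested probe sets, the 45 cytosolic and the 83 mitochondrial ones. The curves of both families lie to the left of the curve of all probe sets, with medians of -0.035 and -0.046 against -0.0082, and the mitochondrial curve reaches further down, to -0.24.

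Within each ribosome the subunits had close medians. In the cytosolic large subunit 27 of 29 probe sets lay below 0 with a median of -0.035, and in the small subunit 15 of 16 with a median of -0.036. The mitochondrial large subunit had 50 of 57 below 0 and a median of -0.043. The mitochondrial small subunit had 20 of 26 and -0.053, and it held both called genes. The mitochondrial members were more spread out than the cytosolic ones: from -0.24 to 0.084 against -0.17 to 0.045. The cytosolic median minus the mitochondrial one was 0.011, and it ranged from -0.0069 without no forskolin replicate 1 to 0.032 with quantile normalization, so its sign depended on these choices.

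Array by array, the shift in the members' own values was not even. Relative to each probe set's own mean over the 4 arrays, the median cytosolic deviation was -0.028 in forskolin replicate 1, -0.0086 in forskolin replicate 2, 0.011 in no forskolin replicate 1 and 0.021 in no forskolin replicate 2. For the mitochondrial members the same deviations were -0.044, -0.0060, 0.033 and 0.021. Over all tested probe sets they were -0.013, 0.0056, -0.0017 and 0.012. In both families forskolin replicate 1 was the lowest array and forskolin replicate 2 lay nearer to the no forskolin arrays, though still under them. Less the median of all tested probe sets, the cytosolic deviations in forskolin replicates 1 and 2 were close, at -0.0151 and -0.0142. The mitochondrial ones remained uneven, at -0.0308 and -0.0116. Leaving out forskolin replicate 2 gave a mitochondrial median of -0.075, and leaving out forskolin replicate 1 gave -0.033, with 56 of 83 below 0. Over all tested probe sets the same runs gave medians of -0.018 and 0.0016. In the run without forskolin replicate 1, 49.2% of all lay below 0.

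**Figure D2:**
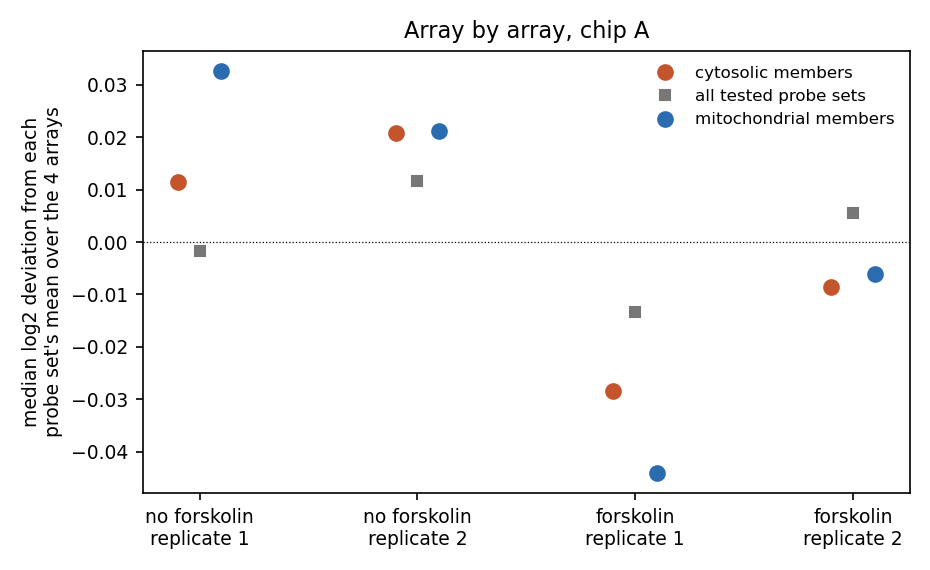
Median deviation of the members from their own mean over the 4 arrays of chip A (log2, vertical axis), for each array and for the cytosolic members, the mitochondrial members and all tested probe sets. Forskolin replicate 1 is the lowest array in both families, at -0.028 and -0.044, and both no forskolin arrays lie above 0 in both families.

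Signal level moved with the difference on chip A. The median difference over all tested probe sets went from 0.024 in the dimmest of 10 equal bins of signal to -0.025 in the brightest, where 70.7% lay below 0. Of the 45 cytosolic probe sets 38 were in that brightest bin, against 7 of the mitochondrial ones. Quantile normalization took the brightest bin to 59% below 0 and a median of -0.0093. It took the cytosolic family to 31 of 45 below 0 (68.9%) and a median of -0.013. The mitochondrial family stayed at 70 of 83 and -0.044. Over all tested probe sets quantile normalization gave 54.6% below 0 and a median of -0.0077. Centring each array on its median gave 43 of 45 and -0.039 for the cytosolic family and 72 of 83 and -0.049 for the mitochondrial one. Over all tested probe sets centring gave 57.2% and -0.012. The part of signal level in the cytosolic difference was not tested further.

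**Figure D3:**
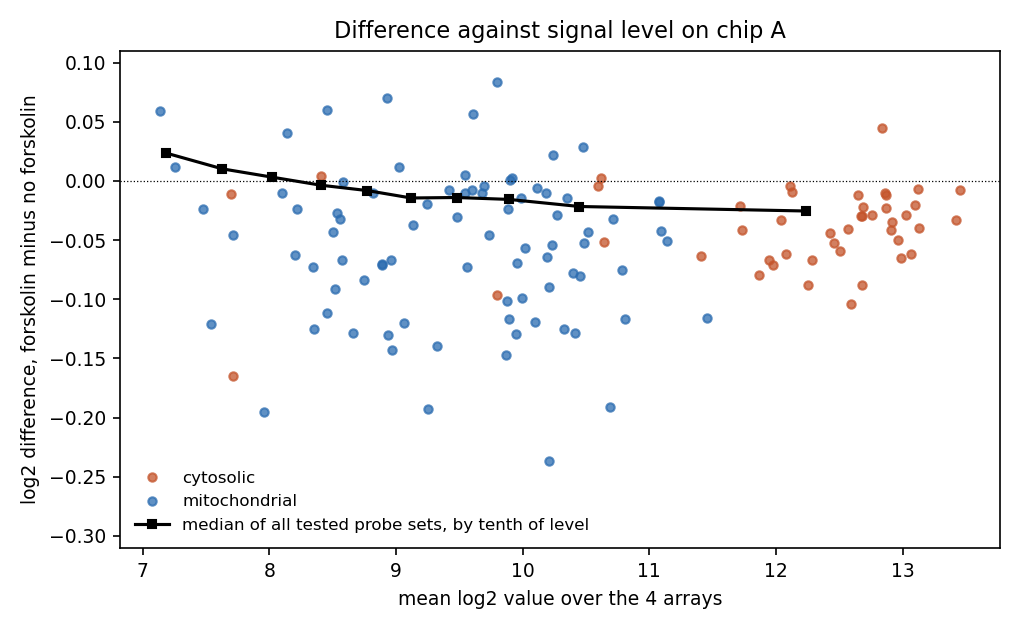
Log2 difference, forskolin minus no forskolin (vertical axis), against the mean log2 value over the 4 arrays (horizontal axis) for the tested members on chip A, with the median of all tested probe sets in each of 10 bins of signal as a line, drawn at the middle of the bin's range. Most cytosolic points sit at the bright end, where the line is at -0.025, and the mitochondrial points spread over the middle of the range and reach -0.24.

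In the mitochondrial small subunit, Mrps6 read 10.09 and 10.09 with forskolin and 10.31 and 10.34 without. Both forskolin arrays lay under both no forskolin arrays, and the replicates of a group differed by far less than the groups. The difference was -0.24 (SE 0.036, limma adjusted p = 0.00819), a 1.18-fold lower signal. Mrps6 is the mitochondrial counterpart of bacterial protein S6 and sits on the platform of the small subunit. Its call held in every alternative run, with adjusted p from 0.00124 to 0.0423.

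Mrps18b read 10.55 and 10.63 with forskolin and 10.80 and 10.77 without. The groups did not overlap, and the difference was -0.19 (SE 0.039, limma adjusted p = 0.0372). It is a paralog of Mrps18a and Mrps18c, vertebrate relatives of bacterial protein S18. Its adjusted p was 0.129 with forskolin replicate 1 left out and 0.0727 with no forskolin replicate 1 left out, so the call rests on those arrays. It was also lost with no filter (0.0554) and without the intensity trend (0.0743).

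The paralogs of Mrps18b had smaller differences. Mrps18a read 10.48 and 10.50 with forskolin and 10.47 and 10.46 without, a difference of 0.029 (95% interval -0.049 to 0.11). Mrps18c was measured on chip B only, at 7.20 and 7.25 against 7.26 and 7.28, a difference of -0.043 (-0.22 to 0.14). The difference between paralogs was not tested.

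Other small-subunit members were not called. Mrps15 read 7.91 and 7.81 with forskolin and 8.03 and 8.07 without, a difference of -0.19 (SE 0.050, limma adjusted p = 0.0928). Mrps5, which helps form the mRNA entry side, had a difference of -0.14 (adjusted p = 0.111). Mrps12, at the decoding centre, read 10.31 and 10.21 against 10.37 and 10.41 (-0.13, adjusted p = 0.183). All 3 had forskolin arrays wholly under the no forskolin ones. Mrps7, counterpart of a bacterial protein that nucleates assembly of the small subunit, differed by -0.045 (adjusted p = 0.601).

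In the mitochondrial large subunit no probe set was called, and the smallest p-values belonged to Mrpl21, Mrpl33 and Mrpl12. Mrpl21 read 9.82 and 9.77 with forskolin and 9.95 and 9.94 without (-0.15, SE 0.038, limma adjusted p = 0.0948). Mrpl33 read 11.38 and 11.41 against 11.51 and 11.52 (-0.12, SE 0.031, adjusted p = 0.0998). Mrpl12, the stalk protein that is also reported to bind mitochondrial RNA polymerase, read 9.22 and 9.10 against 9.38 and 9.33 (-0.19, SE 0.051, adjusted p = 0.101). In each of these the groups did not overlap. Under median centring all 3 passed, at adjusted p of 0.0478, 0.0391 and 0.0498, and Mrpl12 also passed without forskolin replicate 1 (0.0445). The counterpart of bacterial L11, spelt mrpl11 in the annotation, differed by -0.029 (adjusted p = 0.754).

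A few mitochondrial members pointed up. Mrpl35 had the largest positive difference of the tested mitochondrial probe sets on chip A, 0.084, at 9.78 and 9.90 with forskolin and 9.74 and 9.78 without (limma adjusted p = 0.416). Mrps25, Mrpl39 and Mrpl10 were at 0.070, 0.060 and 0.056, and their forskolin arrays lay above the no forskolin ones. None of them passed at an unadjusted p under 0.05. On chip B Mrpl10 was at -0.059 through another probe set, with overlapping groups.

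**Figure D4:**
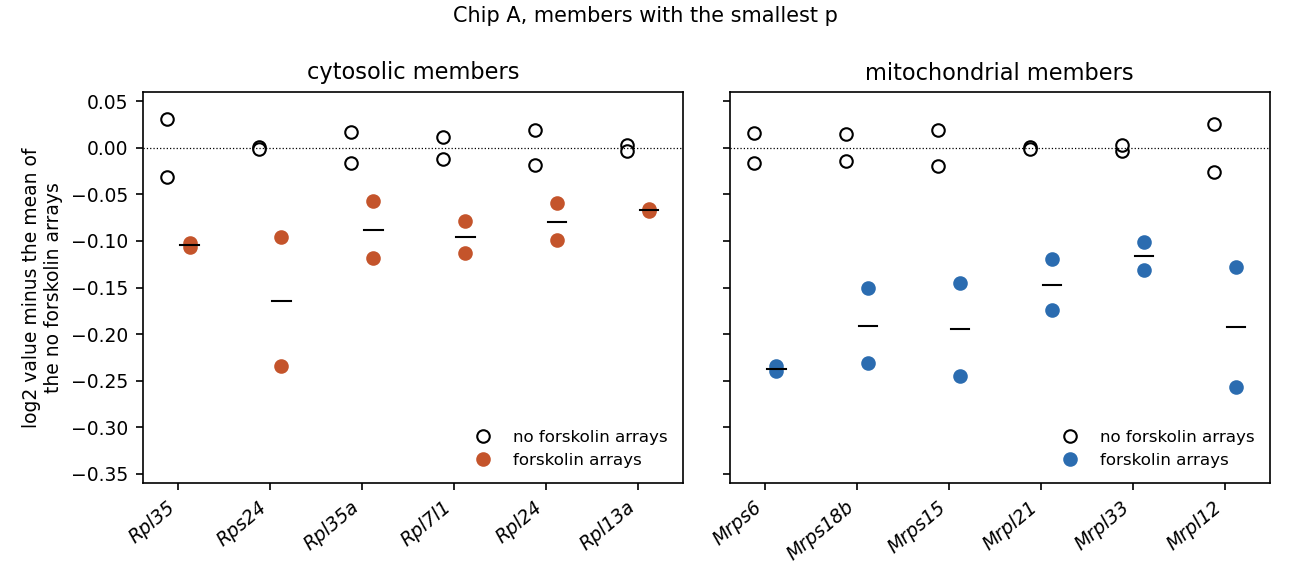
Log2 value of each chip A array minus the mean of the 2 no forskolin arrays (vertical axis) for the 6 cytosolic and the 6 mitochondrial genes with the smallest p. Open points are no forskolin arrays, filled points forskolin arrays and bars their means. In all 12 genes shown the filled points lie under the open ones, as the choice by p favours, and the called genes, Mrps6 and Mrps18b, have means of -0.24 and -0.19.

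Of the cytosolic large subunit, Rpl35 came nearest to the threshold. It read 12.54 and 12.53 with forskolin and 12.61 and 12.67 without, a difference of -0.10 (SE 0.030, limma adjusted p = 0.123), and of the alternatives run it passed under median centring only (0.0446). Rpl35a read 12.18 and 12.24 against 12.31 and 12.28 (-0.088, adjusted p = 0.207). Rpl24 read 11.85 and 11.81 against 11.93 and 11.89 (-0.079, adjusted p = 0.242). The groups did not overlap in these genes, yet the differences were small, -0.10 at most. Rpl13a, a protein that also takes part in silencing mRNAs after interferon-gamma, read 12.25 and 12.25 against 12.32 and 12.32 (-0.067, adjusted p = 0.244).

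Other well-known members of the large subunit were not called. Rpl5 and Rpl11, which with 5S ribosomal RNA restrain Mdm2 and so stabilise p53, differed by -0.052 and -0.033 (limma adjusted p = 0.351 and 0.661). Rplp0, the base of the stalk, read 12.68 and 12.66 against 12.69 and 12.70 (-0.022), and with quantile normalization it differed by 0.014. Rpl3, next to the peptidyl transferase centre, differed by -0.023 and Rpl22 by -0.052. Rpl6 was the only tested cytosolic member whose forskolin arrays lay wholly above the no forskolin ones, at 12.85 and 12.87 against 12.80 and 12.83 (0.045, adjusted p = 0.403).

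In the cytosolic small subunit, Rps24 gave different values through its probe sets. The dimmer read 7.70 and 7.56 with forskolin and 7.80 and 7.80 without, a difference of -0.17 (SE 0.056, limma adjusted p = 0.179). The brighter read 12.90 and 12.88 against 12.92 and 12.94, a difference of -0.042 (adjusted p = 0.439). Rps6, the classic substrate of S6 kinase, read 12.65 and 12.68 against 12.69 and 12.69 (-0.030), and with quantile normalization it differed by 0.0048. Rpsa, also known as the laminin receptor, had 3 probe sets, at -0.029, -0.042 and 0.0023. Rps27l, a paralog of Rps27 that p53 induces, overlapped between groups (-0.011). Rpl7l1, a paralog of Rpl7 found in precursors of the large subunit, differed by -0.096 (adjusted p = 0.24) and by -0.0039 through its other probe set.

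Across genes with more than 1 tested probe set on chip A, 6 of 10 pointed in 1 direction. Mrpl37, Mrpl40, Mrpl51 and Rpsa did not. Both probe sets of Mrpl49 were low, at -0.13 and -0.12, with no overlap between groups in either.

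Chip B held fewer members and was less precise, with a median 95% interval of 0.19 to either side for both families. Limma called 0 of 4 cytosolic and 0 of 21 mitochondrial probe sets, against 0.159% of all tested probe sets. At an unadjusted p under 0.05, 0 cytosolic probe sets and 1 mitochondrial one were lower (background 3.33%) and 0 of either were higher (background 1.64%). Below 0 lay 4 of 4 and 14 of 21, against 61.9% of all, and the medians were -0.039 and -0.043 against -0.026. Leaving out forskolin replicate 1 gave a cytosolic median of -0.064. Leaving out forskolin replicate 2 gave -0.023 for the cytosolic and -0.0048 for the mitochondrial median. Over all tested probe sets the medians were -0.035 without forskolin replicate 1 and -0.018 without forskolin replicate 2. The forskolin arrays lay wholly under the others for 0 of the 4 and 7 of the 21 (background 22.2%), and wholly above them for 0 and 2 (background 10.4%). With quantile normalization 2 of 4 and 13 of 21 lay below 0, against 49.8% of all tested probe sets in that run.

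The mitochondrial member of chip B with p under 0.05 was Mrps26, a protein of the small subunit without a bacterial counterpart. It read 9.73 and 9.82 with forskolin and 10.05 and 10.002 without, a difference of -0.25 (SE 0.081, limma adjusted p = 0.919). The same probe set on chip A read 9.90 and 10.08 against 10.08 and 10.003, a difference of -0.057 with overlapping groups. Next were Mrpl14, at 7.40 and 7.33 against 7.50 and 7.52 (-0.14), and Mrps14, at 10.28 and 10.29 against 10.39 and 10.46 (-0.14), both with adjusted p = 0.977. Through their probe sets on chip A these genes differed by -0.010 and 0.0008. The cytosolic members of chip B were Rpl39l1 (-0.078), Rpl13a (-0.064), Rpl24 (-0.013) and Rpl27al2 (-0.0068), and in each the groups overlapped.

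In all 18 genes were tested on both chips, and 5 probe sets were the same on both. Mrpl21 differed by -0.15 on chip A and -0.12 on chip B through the same probe set, Mrpl43 by -0.043 and -0.094 and mrpl11 by -0.029 and -0.076. Mrpl53 differed by -0.12 on chip A and 0.0065 on chip B. The 95% intervals of the chips overlapped for each of the 5. Mrpl12 and Mrpl15, at -0.19 and -0.14 on chip A, were at 0.012 and 0.0006 through other probe sets on chip B. Mrpl48 was at -0.071 on chip A and 0.044 on chip B. Mrps27 and Mrps9 were at -0.12 and -0.084 on chip A, and at -0.0895 and -0.039 on chip B through their probe sets of smallest p. The labels do not state whether the chips were hybridised with the same RNA.

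**Figure D5:**
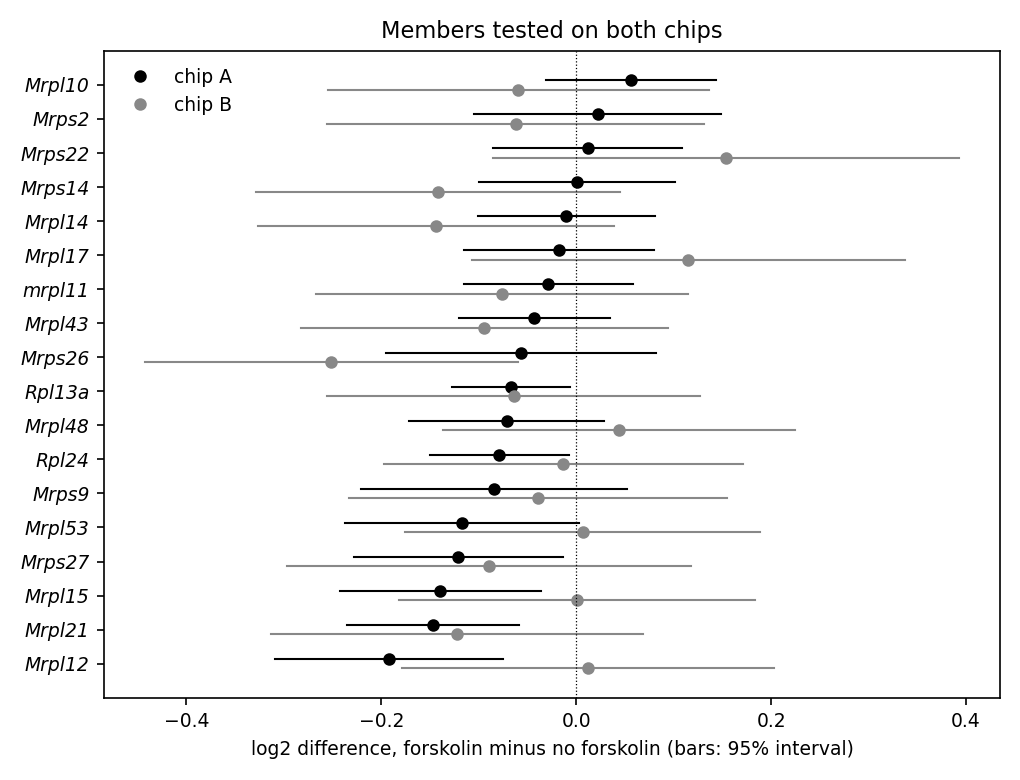
Log2 difference, forskolin minus no forskolin (horizontal axis), with 95% intervals, for each gene tested on both chips (vertical axis, ordered by the chip A difference). Black points are chip A and grey points chip B, each through the gene's probe set of smallest p on that chip. Intervals are wider on chip B, and Mrps26 has the lowest chip B value, -0.25, against -0.057 on chip A.

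Promoters of the members were searched on both strands over the whole 300 bases for letters known as sites of transcription factors. The full cyclic AMP response element TGACGTCA was in 1 of 40 cytosolic promoters (2.5%), 1 of 64 mitochondrial ones (1.56%) and 1.83% of all. Both are printed with the element in capitals, because forskolin acts through cyclic AMP.
Rpl26: cctccaagagaTGACGTCAgaaccctcgca
Mrpl55: cccgcacctcgTGACGTCAtcaccgcgcgc
They lie at chr10:54109551-54109580 and chr10:44488229-44488258, both on the plus strand. Neither gene was called: Rpl26 read 13.10 and 13.14 with forskolin and 13.12 and 13.13 without (-0.0071), and Mrpl55 read 10.65 and 10.75 against 10.70 and 10.77 (-0.032). The shorter form TGACG, which the full element holds, was in 37.5%, 31.2% and 21.2%.

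The core of ETS factor sites, CCGGAAG, was in 25% of cytosolic and 31.2% of mitochondrial promoters and in 8.75% of all. The palindromic site of nuclear respiratory factor Nrf1, which opens the line of Mrps18b printed next, was in 0 of 40 cytosolic, 4 of 64 mitochondrial (6.25%) and 0.852% of all promoters. Mrps18b holds both close to its start, as its line shows with these sites in capitals (the ETS core on the opposite strand).
Mrps18b: GCGCATGCGCagtcgttCTTCCGGcaggcc
The E-box CACGTG, bound by Myc, was in 7.5%, 10.9% and 6.42%, and TATAAA in 15%, 12.5% and 14.2%. Median GC content was 55.5% and 55.7% against 51.7% for all. The promoter of Mrps6, the other called member, held none of the sites searched. A match describes letters and not a bound site.

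Medians of the chip A differences were also taken by promoter feature. Cytosolic probe sets whose promoter held the pyrimidine run had a median of -0.042 (23 probe sets), and those without it -0.022 (16). Mitochondrial ones with the run had -0.12 (11) and without it -0.044 (58). With and without the ETS core the mitochondrial medians were -0.057 (21) and -0.053 (48), and the cytosolic ones -0.032 (10) and -0.041 (29). With and without TGACG they were -0.075 (19) and -0.043 (50) for mitochondrial members, and -0.034 (16) and -0.040 (23) for cytosolic ones. These are descriptions of overlapping groups of genes, with no test.

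Genes of the same pathways, in lists read gene by gene through the probe set with the smallest p, were mostly not called either. Over all tested probe sets limma called 3.30% on chip A and 0.159% on chip B. Those shares count every probe set and not 1 probe set a gene, so nothing particular to a list is read from its calls. Of 51 tested genes of ribosome assembly in the nucleolus 1 was called: Gnl3, nucleostemin, a nucleolar GTPase, rose by 0.21, from 10.20 and 10.18 to 10.38 and 10.43 (SE 0.036, limma adjusted p = 0.0166). The median of this list was -0.022. Of 13 genes of the RNA polymerase I machinery, which makes ribosomal RNA, 0 were called, 0 were higher and 1 was lower at an unadjusted p under 0.05, Polr1d (-0.088, adjusted p = 0.281). Without forskolin replicate 2 the call of Gnl3 was lost.

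Of 12 tested genes outside the named families whose mRNAs carry terminal oligopyrimidine tracts, 1 was called (background 3.30% on chip A). Hnrnpa1, a splicing factor, fell by 0.24, from 9.48 and 9.56 to 9.28 and 9.27 through 1 of its 3 probe sets (SE 0.043, limma adjusted p = 0.0177). That call was lost when forskolin replicate 1, forskolin replicate 2 or no forskolin replicate 2 was left out. Of 28 tested genes that serve the mitochondrial ribosome in other ways (factors, assembly GTPases, other subunit proteins, mitochondrial transcription) 0 were called and 24 lay below 0, with a median of -0.068. At an unadjusted p under 0.05, 6 of these were lower and 1, Nsun4, higher. Over all tested probe sets 10.3% were lower and 7.10% higher at that level on chip A, 3.33% and 1.64% on chip B, and 55.0% and 61.9% lay below 0. Those shares count every probe set, whereas each gene of a list is read through its probe set of smallest p, so nothing particular to the list is read from its counts. The smallest p was that of Mtg1, a GTPase of large-subunit assembly, at 8.78 and 8.75 with forskolin and 8.90 and 8.93 without (-0.15, adjusted p = 0.113).

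Among 18 tested genes that control ribosomal protein genes and translation, Myc and Tsc1 were called (background 3.30% on chip A and 0.159% on chip B). Myc, a transcription factor of ribosome genes among many others, rose from 7.81 and 7.99 to 8.31 and 8.46, by 0.48 (SE 0.071, limma adjusted p = 0.00781). Tsc1, which with Tsc2 restrains mTOR complex signalling, fell by 0.26, from 8.46 and 8.52 to 8.25 and 8.20 (SE 0.045, adjusted p = 0.0166). The median of this list was -0.010. Its calls numbered 1 without forskolin replicate 2.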

How the data were processed

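RNA from PC12 cells was read on 8 arrays. The authors deposited 1 table per chip with a log2 value for each probe set and array. The steps before that (scanner, background, summary, scaling) are not stated in the labels, and the log base was inferred from the range of the values. Symbols came from the chip annotation at GEO, checked by gene number against the RefSeq table of rat (GRCr8). By gene number 12748 of the 15866 on chip A matched, and 7524 of the 15276 on chip B. Probe sets with several symbols were not named.

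Each chip was fitted alone with limma 3.58.1 in R 4.3.3 (lmFit, eBayes with intensity trend, two-sided), without further normalization because array medians lay within 0.1 of each other. Probe sets under the 30th percentile of the mean linear value were left out (11106 and 10693 tested). Adjusted p is Benjamini-Hochberg over all tested probe sets of a chip, called under 0.05. The fit was also run on simulated data with independent noise in each array. That simulation held no shift of a whole array or with signal level, so it cannot show how such shifts affect the calls. The members and lists were chosen with earlier results of these data known. Genes were named where called, then the 6 (chip A) or 3 (chip B) of each family with the smallest p. Members on both chips, a panel of well-known members, and from each list the called genes or the one of smallest p were also named. Mrps18a, Mrps18c, Mrpl35, Mrps25, Mrpl39, Mrps5, Mrpl49, Rpl6, Nsun4, Rpl26 and Mrpl55 were added after their values or sequences were seen. Mrpl10, a member on both chips, was set among the upward ones after its values were seen.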

Additional observations from a re-analysis of the deposited data

How the results depend on the processing

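Calls are few and small shifts decide them. Over all of chip A 140 probe sets were called lower; median centring gave 277 and leaving out 1 array 83 to 192 (83 without forskolin replicate 1, 85 without forskolin replicate 2). On chip B 16 higher and 1 lower became 27 and 3 with quantile normalization, and 10 to 41 and 0 to 57 with 1 array left out (10 higher without forskolin replicate 2, 37 higher and 57 lower without no forskolin replicate 1, 41 and 5 without no forskolin replicate 2, 0 lower without forskolin replicate 1). Members of chip A called lower numbered 1 cytosolic and 5 mitochondrial with median centring, and 1 mitochondrial with no filter or no intensity trend; leaving out 1 array gave 1 to 2 mitochondrial.

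The chip A medians ran from -0.049 to -0.027 (cytosolic) and -0.075 to -0.033 (mitochondrial) with 1 array left out, and the cytosolic one was -0.013 with quantile normalization. On chip B the same ranges were -0.064 to -0.023 and -0.055 to -0.0048, and quantile normalization gave -0.012 for the mitochondrial median. A filter at the 50th percentile left only 2 cytosolic probe sets on chip B. With it the cytosolic median was -0.010, and cytosolic minus mitochondrial was 0.041. With 1 array left out, the lists of assembly, oligopyrimidine and mitochondrial translation genes had 0 to 1 calls (1 for mitochondrial translation without no forskolin replicate 1) and the list of controlling genes 1 to 2; the last had 1 with the filter at the 50th percentile.

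The replicate numbers were not taken as pairs, since the labels do not tie them. Same-numbered arrays had deviations correlated at 0.0034 on chip A and 0.20 on chip B. Whether the arrays of chip B were paired was not tested. With the replicate number as a block, 46 probe sets of chip A and 2 of chip B were called lower, 1 mitochondrial member was called (Mrps6; Mrps18b had adjusted p = 0.115), and the assembly, oligopyrimidine and controlling lists had 0, 0 and 1 calls.

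None of the genes whose sign changed was called. With quantile normalization Rplp0 was at 0.014, Rps6 at 0.0048 and Rpl24 on chip B at 0.0075; with median centring that Rpl24 was at 0.0078 and Mrps14 on chip A at -0.0029. With 1 array left out the chip A ranges were -0.036 to 0.015 (Mrpl14), -0.065 to 0.029 (Mrpl17), -0.042 to 0.043 (Mrps14), -0.060 to 0.10 (Mrps2), -0.022 to 0.045 (Mrps22), -0.15 to 0.034 (Mrps26), -0.052 to 0.0063 (Rpl3), -0.080 to 0.058 (Rps27l) and -0.058 to 0.0013 (mrpl11), and the chip B ranges -0.044 to 0.017 (Rpl24) and -0.17 to 0.020 (Rpl39l1). The cause of these shifts was not tested. The updated symbols equalled those of the annotation, so that alternative gave the same members.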
